A study of Mus musculus with 8 samples.

Results

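Transcripts of 10 transcription factors of mesenchyme and mesothelium were followed in S0 cells sorted from the liver of mouse embryos at stage E12.5: Tcf21, Hand2, Foxf1, Nr2f1, Lhx2, Wt1, Tbx18, Twist1, Twist2 and Prrx1. The factors were a given list, chosen with earlier results of these data known. They were found by symbol, 10 of 10, among 52636 genes in the count table. The 8 libraries came from 4 wild-type (WT) and 4 double-knockout (DKO) samples. DKO embryos lacked both Vps13a and Vps13c, which encode proteins that carry lipids between membranes of organelles, and the loss was in the whole body, since the Vps13a allele was recombined by a Cre driven from the β-actin promoter. The mice were on a C57BL/6J background. WT embryos carried neither mutation and so could not be littermates of the DKO embryos, which came from intercrosses of animals already null for Vps13c. S0 is the least mature gate of a fetal liver sort, made of cells that stained for neither CD71 nor Ter119 and were negative for antibodies to blood lineages. The labels call these cells erythroid precursors, and no antibody of the lineage cocktail was directed at stromal cells or hepatocytes. Whether each library came from 1 embryo is not stated, so that p-values measure the spread between these samples, and bulk RNA cannot tell fewer cells of a type from less RNA per cell.

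The fetal liver grows from endoderm into the mesenchyme of the septum transversum, and a sheet of mesothelium covers it. Tcf21, Hand2, Foxf1, Nr2f1 and Lhx2 are factors of the mesenchyme around internal organs, and stellate cells, the vitamin A-storing mesenchymal cells of the liver, express several of them. Wt1 and Tbx18 mark mesothelium and the related covering of the heart, the epicardium. Twist1, Twist2 and Prrx1 are best known from the mesenchyme of limb, face, dermis and body wall. Tcf21, Hand2, Twist1 and Twist2 are basic helix-loop-helix (bHLH) proteins, which bind DNA at E-boxes as dimers with widely expressed E proteins. None of the 10 is a defining gene of the erythroid lineage.

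As examples from 1 protein family, the windows before the transcription start of 3 of the 4 bHLH genes are given below, from RefSeq on GRCm38.p6, the build of the count table. Each holds the 250 bases that end just before the annotated start, 5′ to 3′ on the gene's strand, and capitals mark the CCAAT box, the TATAA box and the E-box CANNTG, searched on both strands.
Hand2, chr8:57320733-57320982, plus strand: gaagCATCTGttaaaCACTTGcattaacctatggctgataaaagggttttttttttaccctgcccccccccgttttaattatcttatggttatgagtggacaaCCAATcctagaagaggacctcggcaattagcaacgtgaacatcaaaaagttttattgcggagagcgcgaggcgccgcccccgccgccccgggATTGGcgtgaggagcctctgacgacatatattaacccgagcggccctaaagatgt
Twist1, chr12:33957421-33957670, plus strand: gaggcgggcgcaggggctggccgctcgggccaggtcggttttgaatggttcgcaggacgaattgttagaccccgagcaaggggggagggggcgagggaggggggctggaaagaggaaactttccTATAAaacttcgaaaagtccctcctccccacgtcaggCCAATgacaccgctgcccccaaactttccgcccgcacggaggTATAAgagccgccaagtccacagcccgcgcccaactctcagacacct
Twist2, chr1:91801211-91801460, plus strand: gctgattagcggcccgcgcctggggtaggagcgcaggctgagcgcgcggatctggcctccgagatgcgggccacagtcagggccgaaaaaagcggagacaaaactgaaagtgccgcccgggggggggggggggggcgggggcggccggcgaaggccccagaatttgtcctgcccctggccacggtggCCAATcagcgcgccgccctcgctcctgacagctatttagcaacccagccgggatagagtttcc
The Hand2 window held 2 CCAAT and 2 E-box matches, that of Twist1 held 1 CCAAT and 2 TATAA matches, and that of Twist2 held 1 CCAAT match. The window of Tcf21, the fourth bHLH gene, held none of the 3 motifs. Of the 10 windows listed for 8 of the factors, 4 held CCAAT, 1 held TATAA and 3 held an E-box. Over all 32851 windows of the table, 33.8% held CCAAT, 22.8% held TATAA and 66.2% held an E-box. No window was found for Wt1 and Foxf1.

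All 10 factors were higher in DKO than in WT. Each passed edgeR's quasi-likelihood test at an adjusted p under 0.05 with a log2 fold change above 1, which 1076 of 17378 genes tested, or 6.19%, did in that direction, and 0 of the 10 were called lower, against 2.43% of all genes. For all 10, each DKO library lay above each WT library, as 13.5% of all genes did. The counts of called genes describe the list and are not support for it, because 8 of the 10 reached the low-count filter, a CPM of 0.236 in 4 libraries, only through the DKO libraries. Wt1 and Foxf1 were the factors that reached it in all 4 WT libraries, and Twist2 reached it in 0 of them. The median log2 fold change of the 10 was 3.94, against 0.03 over all genes tested. Summed over the 10, normalized counts (counts scaled to a common effective library size) were 130, 83.5, 347 and 213 in WT 1 to 4 and 7002, 1203, 1612 and 1305 in DKO 1 to 4. The DKO 1 sum stood far above the other DKO sums, and no DKO sum came near the WT range. On the log2 scale the sums differed by 3.60, a 12.1-fold difference (p = 0.0286 by a two-sided exact permutation test, the smallest p of this design). Since each factor already separated the groups, the sum had to give this p, which is no support for the list. Without DKO 1 and DKO 3 the difference was 2.89 and 7 of the 10 were still called, a choice made after the data were seen.

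**Figure D1:**
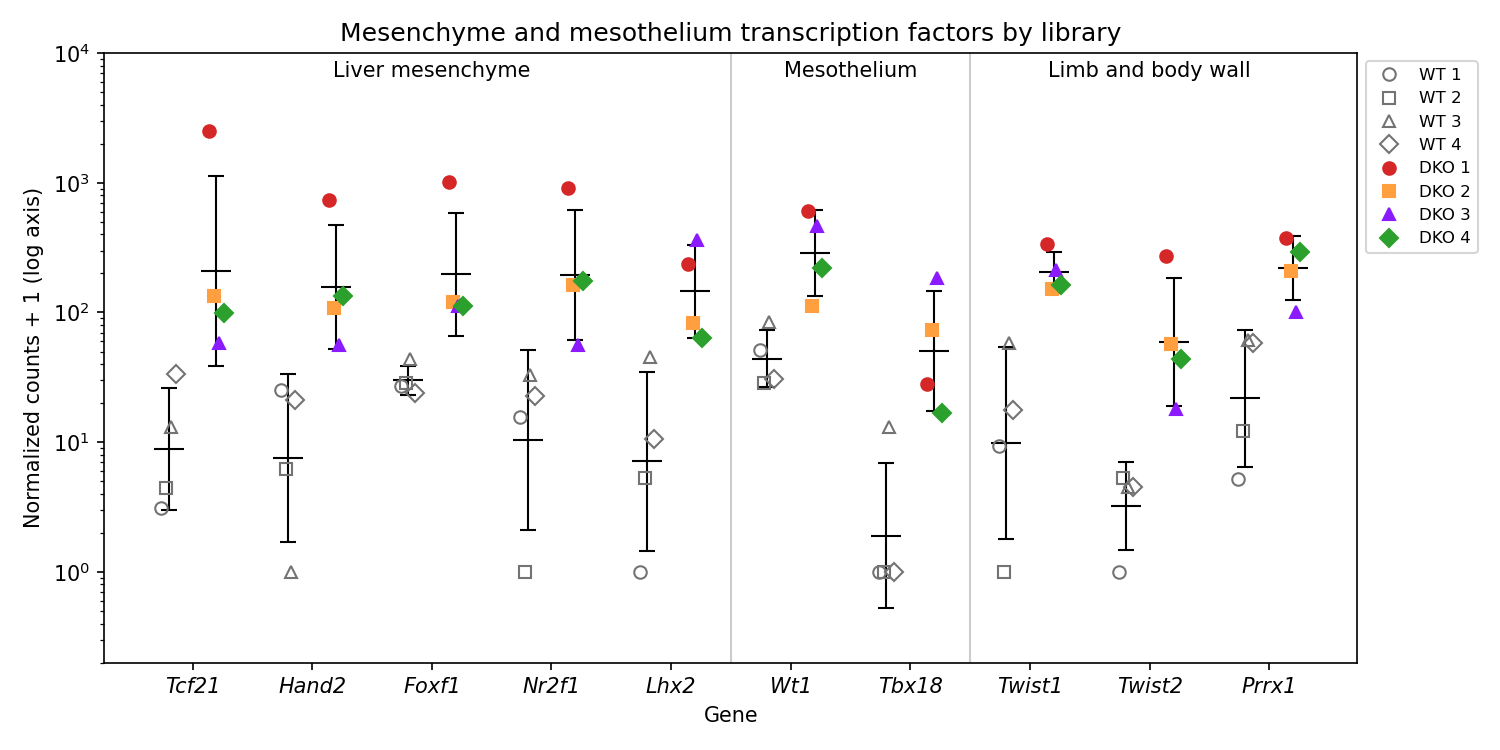
Normalized counts plus 1 (log axis) of the 10 factors in each WT library (open grey symbols) and each DKO library (filled symbols), with the mean and SD on the log2 scale as bars (n = 4 each), the lower bar of Tbx18 in WT being drawn to below 1. For each gene the lowest DKO library lies above the highest WT library, and DKO 1 is far above the other DKO libraries for Tcf21, Hand2, Foxf1, Nr2f1 and Twist2.

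Tcf21, a bHLH factor needed for the mesenchyme of lung, kidney and spleen (ENSMUSG00000045680.8, chromosome 10, minus strand, 22817281 to 22820174), had 2.09, 3.44, 12.2 and 32.3 normalized counts in WT 1 to 4 and 2488, 133, 57.4 and 97.2 in DKO 1 to 4. DKO 1 alone held 89.7% of the DKO total, and the other DKO libraries still lay above WT. The fold change was 5.76 on the log2 scale (SE 1.46 and adjusted p = 0.0227 by edgeR). Without DKO 1 it was 2.93 and the call stood (adjusted p = 0.0326 by edgeR), while it was not called without WT 1 (0.0714), WT 2 (0.0688) or WT 3 (0.0592), each an edgeR adjusted p.

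Hand2, a bHLH factor of heart, limb and gut mesenchyme (ENSMUSG00000038193.4, chromosome 8, plus strand, 57320983 to 57324633), measured 24.1, 5.16, 0 and 20.1 normalized counts in WT against 736, 108, 54.9 and 133 in DKO, in replicate order. Its DKO values again split into DKO 1 and 3 lower libraries, and no DKO library overlapped WT. DKO exceeded WT by 4.39 on the log2 scale (SE 1.15 and adjusted p = 0.0252 by edgeR), and it was 3.01 without DKO 1 (adjusted p = 0.0501 by edgeR), the library that held 71.3% of the DKO total. It was also not called without WT 1 (0.0564), WT 2 (0.0754) or WT 4 (0.0634), each an edgeR adjusted p.

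Foxf1, a forkhead factor that Hedgehog signals switch on in visceral mesoderm (ENSMUSG00000042812.5, chromosome 8, plus strand, 121084386 to 121088144), was the steadiest factor in WT, with 26.2, 27.5, 42.6 and 22.7 normalized counts. In DKO 1 it had 1012, and in DKO 2 to 4 it had 119, 111 and 111. These 3 libraries lay close together at more than the highest WT value. The difference was 3.50 in log2 units (SE 0.82 and adjusted p = 0.0169 by edgeR) and was 1.93 without DKO 1 (adjusted p = 0.00724 by edgeR). The call was lost without WT 1 (0.0596), WT 2 (0.0547) or WT 4 (0.0594), each an edgeR adjusted p.

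Nr2f1, an orphan nuclear receptor of the COUP-TF family (ENSMUSG00000069171.14, chromosome 13, minus strand, 78188973 to 78199757), measured 14.7, 0, 32.1 and 21.9 normalized counts in WT against 910, 163, 54.9 and 174 in DKO. DKO 3 was the lowest DKO library, as it was for Tcf21 and Hand2. A log2 change of 4.24 resulted (SE 1.11 and adjusted p = 0.0256 by edgeR), and 2.93 without DKO 1 (adjusted p = 0.0492 by edgeR). Without WT 1 (0.0807) or WT 4 (0.0735) the edgeR adjusted p was above 0.05.

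Lhx2, a LIM-homeodomain factor known to hold stellate cells in their quiescent state (ENSMUSG00000000247.11, chromosome 2, plus strand, 38339281 to 38369733), differed from the 4 genes above in which library led. It measured 0, 4.30, 44.3 and 9.62 normalized counts in WT against 233, 82.5, 360 and 62.7 in DKO, so that DKO 3 was highest. WT 3 came closest to the DKO range. On the log2 scale the rise was 3.64 (SE 1.08 and adjusted p = 0.0402 by edgeR). This call was lost without any of WT 1 (0.0678), WT 2 (0.104), WT 4 (0.115), DKO 1 (0.0561) or DKO 3 (0.0824), each an edgeR adjusted p, and without DKO 1 and DKO 3 together the log2 fold change was 2.30 (adjusted p = 0.2 by edgeR). It was 5.24 without WT 3.

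Wt1, a zinc-finger factor of mesothelium, epicardium and kidney (ENSMUSG00000016458.14, chromosome 2, plus strand, 105126529 to 105173616), measured 50.3, 27.5, 83.4 and 29.7 normalized counts in WT against 609, 112, 460 and 218 in DKO. DKO 1 and DKO 3 were the high libraries, and DKO 2 lay just above the highest WT library. The fold change was 2.87 on the log2 scale (SE 0.59 and adjusted p = 0.0105 by edgeR). Wt1 was called with each library left out, at a log2 fold change of 2.46 to 3.28, and also without DKO 1 and DKO 3, at 1.79 (adjusted p = 0.0397 by edgeR).

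Tbx18, a T-box factor of the septum transversum, epicardium and ureter mesenchyme (ENSMUSG00000032419.8, chromosome 9, minus strand, 87702800 to 87731260), was at 0 in WT 1, WT 2 and WT 4 and had 12.2 normalized counts in WT 3. In DKO 1 to 4 it had 27.3, 72.1, 184 and 15.7. DKO 3 held 61.6% of the DKO total, and DKO 4 was close to WT 3. The fitted log2 difference, 4.54 (SE 1.42 and adjusted p = 0.0477 by edgeR), rests on WT values that are mostly 0 and depends on the prior count of the fit. It was not called without WT 1 (0.119), WT 2 (0.108), WT 4 (0.114), DKO 2 (0.0732), DKO 3 (0.112) or DKO 4 (0.051), each an edgeR adjusted p, and without WT 3 each remaining WT library was at 0 and the fitted value of 9.19 is no bound.

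Twist1, a bHLH factor of head and limb mesenchyme (ENSMUSG00000035799.6, chromosome 12, plus strand, 33957671 to 33959829), measured 8.38, 0, 57.3 and 16.6 normalized counts in WT against 336, 150, 211 and 161 in DKO. Relative to its mean, the SD in DKO was the smallest of the 10 factors. DKO exceeded WT by 3.37 on the log2 scale (SE 0.97 and adjusted p = 0.0357 by edgeR). The edgeR adjusted p lay between 0.0501 and 0.0566 without DKO 1, DKO 2, DKO 3 or DKO 4, and was 0.105 without WT 1 and 0.103 without WT 4, and the log2 fold change was 4.66 without WT 3.

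Twist2, also known as Dermo1, a bHLH factor of dermis (ENSMUSG00000007805.4, chromosome 1, plus strand, 91801461 to 91848028), measured 0, 4.30, 3.47 and 3.50 normalized counts in WT against 273, 55.8, 17.1 and 42.8 in DKO. WT was near 0 throughout, and DKO 1 was far above the rest. The difference was 5.02 in log2 units (SE 1.07 and adjusted p = 0.0121 by edgeR). It was called with each library left out, at 3.70 to 5.37.

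Prrx1, a paired-related homeodomain factor of limb and face mesenchyme (ENSMUSG00000026586.16, chromosome 1, minus strand, 163245119 to 163313710), measured 4.19, 11.2, 59.9 and 56.8 normalized counts in WT against 377, 209, 100.1 and 289 in DKO. WT 3 and WT 4 were well above WT 1 and WT 2, and DKO 3 was the DKO library nearest to them. A log2 change of 2.87 resulted (SE 0.77 and adjusted p = 0.0281 by edgeR). It was not called without WT 1 (0.0514), WT 2 (0.0735), WT 4 (0.0533) or DKO 4 (0.0569), each an edgeR adjusted p.

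**Figure D2:**
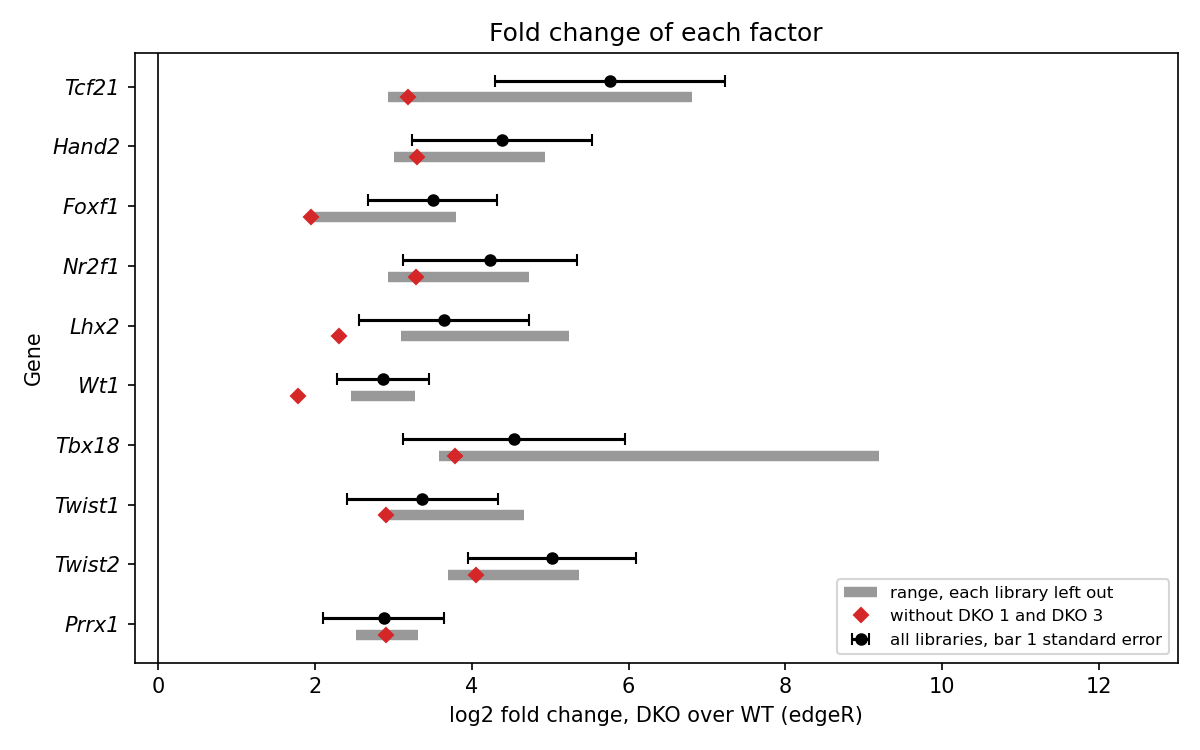
log2 fold change of DKO over WT from edgeR for each factor with all libraries (black point, bar of 1 standard error), the range when each of the 8 libraries is left out in turn (grey bar), and the value without DKO 1 and DKO 3 (red diamond). All lie above 0. The far end of the Tbx18 bar, 9.19, is the fit without WT 3, in which each WT library is at 0.

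Per kilobase of exon, the order of the factors by their mean in DKO began with Tcf21, at 6.73 ± 11.6 CPM per kilobase (mean ± SD, n = 4), followed by Foxf1 at 3.19 ± 4.24, Twist1 at 3.0 ± 1.19 and Hand2 at 2.50 ± 3.10. It went on with Nr2f1 at 1.46 ± 1.76, Wt1 at 1.29 ± 0.83, Lhx2 at 0.957 ± 0.724, Twist2 at 0.698 ± 0.849, Prrx1 at 0.502 ± 0.243 and Tbx18 at 0.361 ± 0.371. DKO 1 weighed on these means, and by the median of the 4 DKO libraries the order began with Twist1 at 2.60 CPM per kilobase, Wt1 at 1.25, Hand2 at 1.17 and Tcf21 at 1.11. In WT the order by mean on the same scale was Twist1 (0.288 ± 0.356), Foxf1 (0.281 ± 0.0828), Wt1 (0.175 ± 0.0952), Tcf21 (0.121 ± 0.135), Hand2 (0.120 ± 0.112), Nr2f1 (0.0767 ± 0.0604), Lhx2 (0.0755 ± 0.105), Prrx1 (0.0680 ± 0.0606), Twist2 (0.0202 ± 0.0138) and Tbx18 (0.0147 ± 0.0294). In either group, the range of each factor overlapped that of the next in order, so that no neighbours were separated beyond their spread.

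The DKO libraries differed in which factors led. DKO 1 was the highest DKO library for 8 of the 10 factors and DKO 3 for the other two, Lhx2 and Tbx18. The ratio of DKO 1 to DKO 3 ran from 43.4 for Tcf21, 16.6 for Nr2f1, 16.0 for Twist2, 13.4 for Hand2 and 9.11 for Foxf1, through 3.77 for Prrx1, 1.59 for Twist1 and 1.32 for Wt1, to 0.648 for Lhx2 and 0.148 for Tbx18. Of the summed counts of the 10, the 5 visceral and liver mesenchyme factors made up 76.8% in DKO 1 and 50.2%, 39.6% and 44.3% in DKO 2 to 4, beside 51.6%, 48.5%, 37.8% and 50% in WT 1 to 4. Wt1 and Tbx18 together made up 40.0% in DKO 3, and 9.09%, 15.3% and 17.9% in DKO 1, DKO 2 and DKO 4, beside 13.9% to 38.7% in WT. The 3 limb and body wall factors made up 14.1% to 37.8% in DKO and 9.68% to 36.1% in WT. DKO 1 lay above the WT range in the share of the 5 visceral and liver mesenchyme factors. Of these, Tcf21 had 2488 normalized counts in DKO 1 and Lhx2 had 233. The DKO 3 share of Wt1 and Tbx18, 40.0%, was just above the highest in WT, 38.7%. The WT shares rest on sums of only 83.5 to 347 normalized counts over the 10 factors. With Tbx18 at 0 in WT 1, WT 2 and WT 4, the share in these libraries was that of Wt1 alone. As a median over the 10 factors, DKO 1 to 4 had 25.2, 8.02, 5.33 and 7.79 times the WT mean.

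**Figure D3:**
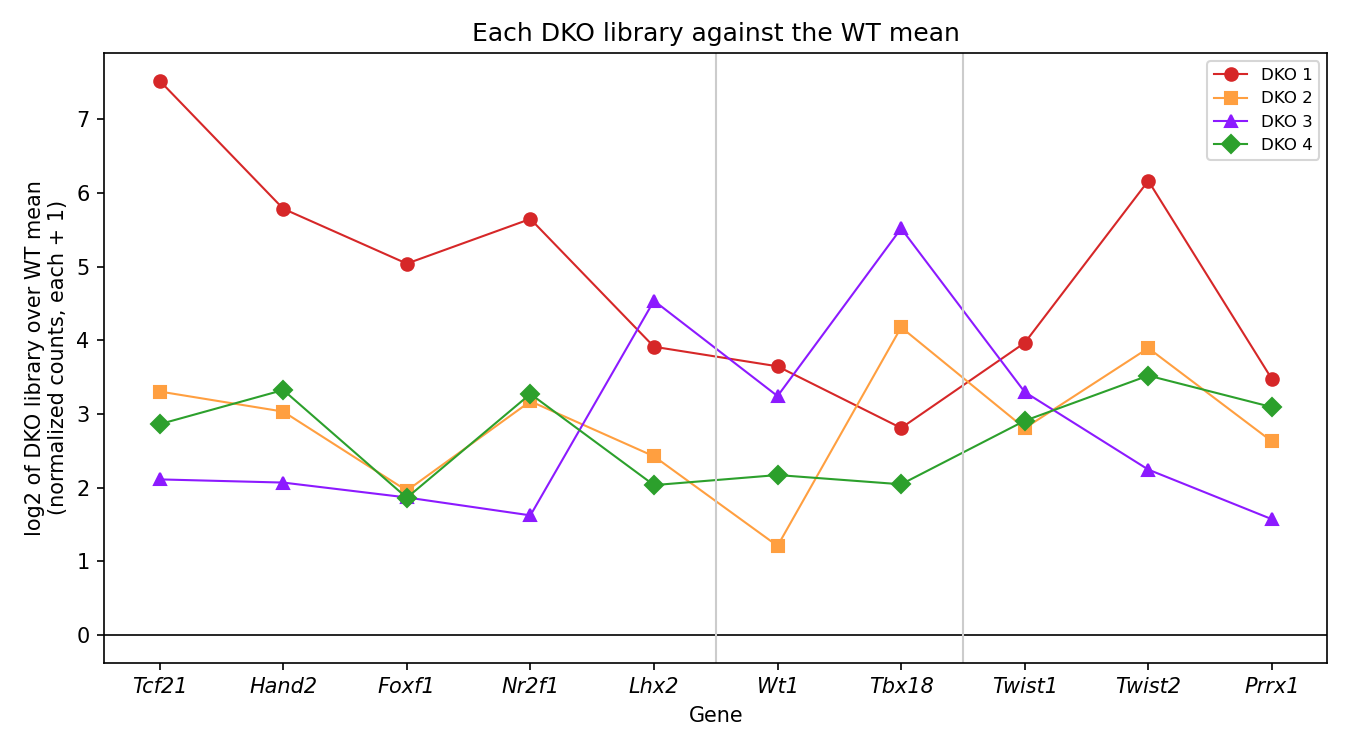
log2 of each DKO library over the WT mean (normalized counts, 1 added to each) for the 10 factors, ordered by subgroup (visceral and liver mesenchyme, mesothelium, limb and body wall). DKO 1 is highest for Tcf21, Hand2, Foxf1 and Nr2f1, where DKO 3 is lowest or level with the lowest, and DKO 3 is highest for Lhx2 and Tbx18.

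Sex-linked transcripts also set libraries apart. The X-inactivation transcript Xist had at most 30.1 normalized counts in WT and 62.3 in DKO 3, against 27043, 18029 and 21393 in DKO 1, DKO 2 and DKO 4, and the Y-linked Ddx3y had 2911 to 3354 in WT and 2516 in DKO 3, where the other DKO libraries had at most 41.0. DKO 3 was thus the only DKO library with the WT pattern, and sex and genotype cannot be told apart in this design. In DKO 3 each of the 10 factors lay above each WT library. The part of sex in the values was not tested. Vps13a, the targeted gene, was lower in DKO (1943 ± 130 against 794 ± 194 normalized counts, SD, n = 4 each, log2 fold change -1.29, SE 0.17 and adjusted p = 0.00247 by edgeR), while the count over the whole of Vps13c (583 ± 74.9 against 816 ± 279) did not check the labels. Totals ran from 42114489 to 50886469 counts per WT library and from 36981439 to 42587815 per DKO library.

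Of the noncoding RNAs annotated beside or over the factors, 3 were called higher with them. Fendrr, which starts 1276 bases from Foxf1 and runs the opposite way, measured 2.09, 0, 2.61 and 10.5 normalized counts in WT against 418, 37.2, 17.1 and 65.8 in DKO (log2 fold change 5.09, SE 1.28 and adjusted p = 0.0218 by edgeR). Wt1os, which starts 19 bases from Wt1 on the opposite strand, was at 0 in each WT library and had 117, 12.8, 51.3 and 15.7 in DKO (adjusted p = 0.0104 by edgeR). Against a floor of 3 counts per WT library its mean was at least 17.9-fold higher in DKO. A830082K12Rik, whose exons overlap 123 bases of Nr2f1, had 0, 0, 0 and 3.50 in WT and 284, 20.9, 50.1 and 44.9 in DKO (adjusted p = 0.00976 by edgeR). In each of these, DKO 1 was the highest library, and the groups did not overlap.

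Hand2os1, which overlaps 461 bases of Hand2 exons, measured 40.8, 49.1, 62.5 and 82.2 normalized counts in WT against 1451, 82.5, 26.9 and 103 in DKO. The groups overlapped, and it did not pass the test (log2 fold change 2.82, adjusted p = 0.0938 by edgeR). Gm26523, inside Prrx1 and on its strand, had at most 6.12 in WT and 11.0 to 42.0 in DKO (adjusted p = 0.0521 by edgeR). Whether strand was used in counting is not given in the sources used here, so that reads of overlapping antisense genes cannot be told from those of the factor. The other overlapping or nearby annotations, Gm10824, Gm13584, Gm27197, Gm29100, Gm29101, Gm20471, Gm37644, D030062O11Rik, Gm27308, Gm20388 and Gm27530, were not tested for low counts.

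Paralogs of the factors were compared next. For the counts of each list from here on, the shares over all genes tested were 6.19% called higher and 2.43% called lower. Nr2f2, the other COUP-TF receptor, ranged from 236 to 436 normalized counts in WT and was 7263, 1038, 1157 and 992 in DKO (log2 fold change 3.06, SE 0.68 and adjusted p = 0.0142 by edgeR). Msc, a bHLH factor related to Tcf21, had 0 to 59.1 in WT and 66.3 to 1285 in DKO (log2 fold change 4.76, adjusted p = 0.0223 by edgeR), and Lhx9, close to Lhx2, had 0 to 29.5 in WT and 25.1 to 244 in DKO with overlapping groups (log2 fold change 3.67, adjusted p = 0.036 by edgeR). Of the 8 paralogs, 4 were tested and these 3 were called higher. Hand1, the fourth, had 385 in DKO 1 and at most 35.8 in any other library. The longest stretch identical between a factor and its paralog was 59 bases, between Nr2f1 and Nr2f2, and that of Twist1 and Twist2 was 23, both shorter than the reads of 150 bases. Without DKO 1 and DKO 3, 1 of the 8 paralogs was called, and without WT 1 or without WT 4 the number was 0 by edgeR.

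Of 7 dimer partners and inhibitors of bHLH factors, 6 were tested and 1 was called higher, which was Id3, an inhibitor that sequesters E proteins, with 842 to 1532 normalized counts in WT against 2472 to 8202 in DKO (log2 fold change 1.80, SE 0.38 and adjusted p = 0.0124 by edgeR). The E protein genes Tcf4 (log2 fold change 0.00, adjusted p = 0.989 by edgeR) and Tcf12 (0.31, adjusted p = 0.188 by edgeR) did not pass the test. Tcf3 (0.48, adjusted p = 0.00885 by edgeR) and Id1 (0.86, adjusted p = 0.0044 by edgeR) passed on the adjusted p and not on the size of the change.

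Among 9 other factors of visceral and liver mesenchyme, 7 were tested and 7 were called higher. Their median was 3.06 on the log2 scale. Zfpm2, a cofactor of GATA proteins, ranged from 10.5 to 31.5 normalized counts in WT and was 114 to 478 in DKO (log2 fold change 3.98, SE 0.54 and adjusted p = 0.00278 by edgeR). Gata4, needed for the septum transversum mesenchyme, had 33.6 to 131 in WT and 422, 445, 878 and 528 in DKO (log2 fold change 3.01, SE 0.45 and adjusted p = 0.00358 by edgeR). Gata6, a related GATA factor, was 2.82-fold higher (adjusted p = 0.005 by edgeR). As for Lhx2 and Tbx18, DKO 3 was highest for Gata4. Barx1, a homeodomain factor of stomach mesenchyme singled out after its values were seen, had 0 to 18.4 in WT. It had 1500 in DKO 1, 58.1 in DKO 2, 0 in DKO 3 and 134 in DKO 4. Barx1 was among the 7 called, though its groups overlapped (log2 fold change 6.02, SE 1.87 and adjusted p = 0.0469 by edgeR). Without DKO 1 and DKO 3, 5 of these factors were called, and the number was 3 without WT 1, 4 without WT 2 and 4 without WT 4.

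Of 27 other factors of limb and body wall, 14 were too low to be tested and 5 were called higher. They include Osr1, a zinc-finger factor of lateral and intermediate mesoderm, with 17.2 to 128 normalized counts in WT against 3214, 374, 260.1 and 1078 in DKO (log2 fold change 4.11, SE 0.88 and adjusted p = 0.0126 by edgeR). Tbx5, a factor of forelimb and heart, had 0 to 20.8 in WT and 30.2 to 162 in DKO (log2 fold change 3.14, adjusted p = 0.0407 by edgeR). Sox9 had 127 to 497 in WT and 453 to 1139 in DKO, with overlapping groups (log2 fold change 1.60, adjusted p = 0.0329 by edgeR). Pitx1, a hindlimb factor singled out after its values were seen and too low to be tested, had 944 in DKO 1 and at most 23.2 elsewhere. Without DKO 1 and DKO 3, 2 of the 27 were called. Leaving out DKO 1 alone left 1, leaving out WT 1 or WT 4 left 2 and leaving out DKO 4 left 3, while DESeq2 called 11.

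Of the effector genes of stellate cells and fibroblasts, 14 of 21 tested were called higher and 0 lower by edgeR (17 higher and 0 lower at an unadjusted p under 0.05, 15 and 0 called by DESeq2), and their median log2 fold change was 2.42. Dcn, which encodes the matrix proteoglycan decorin, ranged from 153 to 188 normalized counts in WT and was 530 to 1065 in DKO (log2 fold change 2.25, SE 0.25 and adjusted p = 0.00124 by edgeR). Tagln, an actin-binding protein of contractile cells, rose by 2.90 (adjusted p = 0.00308 by edgeR), Col1a2, a chain of type I collagen, by 3.03 (adjusted p = 0.00384 by edgeR) and Des, the intermediate filament of muscle and stellate cells, by 3.38 (adjusted p = 0.00582 by edgeR), all on the log2 scale. Other genes of stellate cells did not pass: Reln had a log2 fold change of -0.06 (adjusted p = 0.913 by edgeR), Pdgfrb of 0.21 (0.668), Hgf of 0.52 (0.304) and Cxcl12 of -0.05 (0.964), and these 4 were singled out after their values were seen. Lrat, the vitamin A-esterifying enzyme of stellate cells, had at most 23.2 normalized counts in any library. Without DKO 1 and DKO 3, 12 of these genes were called.

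Of 10 tested surface and matrix genes of mesothelium, 6 were called higher and 0 lower by edgeR (8 and 0 at an unadjusted p under 0.05, 7 and 0 called by DESeq2). Upk3b, a uroplakin of the mesothelial surface, had 106, 18.9, 69.5 and 36.7 normalized counts in WT against 1291, 601, 1543 and 404 in DKO (log2 fold change 4.06, SE 0.61 and adjusted p = 0.00366 by edgeR). Aldh1a2, which makes retinoic acid, had 9.62 to 18.8 in WT and 907, 61.6, 360 and 121 in DKO (log2 fold change 4.60, adjusted p = 0.00659 by edgeR), Krt19 rose by 3.63 (adjusted p = 0.00683 by edgeR) and Gpm6a by 2.26 (adjusted p = 0.014 by edgeR). As with Wt1, DKO 1 and DKO 3 were the high libraries for Upk3b, Aldh1a2 and Krt19. Msln, the namesake antigen mesothelin, was at 0 in 7 libraries and had 20.8 in DKO 3. Without DKO 1 and DKO 3, 4 of the list were called.

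Among genes tied to the transition between epithelium and mesenchyme, Cdh11, the cadherin of mesenchyme (log2 fold change 3.81, adjusted p = 0.00582 by edgeR), Snai1 (2.28, adjusted p = 0.0141 by edgeR) and Snai2 (3.06, adjusted p = 0.0479 by edgeR) rose, and Cdh1, the cadherin of epithelium, fell by 1.52 on the log2 scale (adjusted p = 0.00497 by edgeR), of 9 tested. The number of these genes called higher was 1 without WT 1. Zeb1 (0.26, adjusted p = 0.268 by edgeR), Cdh2 (0.38, adjusted p = 0.413 by edgeR), Fn1 (-0.04, adjusted p = 0.942 by edgeR) and Vim (0.32, adjusted p = 0.085 by edgeR) did not pass, and Zeb2 (-0.44, adjusted p = 0.0251 by edgeR) passed on the adjusted p alone.

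Markers of other tissues moved with the factors in part. Of 7 skeletal muscle genes tested, 4 were called higher, among them Myog, the muscle regulator myogenin, with 45.6 to 250.3 normalized counts in WT against 975, 371, 1797 and 657 in DKO (log2 fold change 2.55, adjusted p = 0.0179 by edgeR), and Actc1 (2.17, adjusted p = 0.0164 by edgeR), Myf5 (3.85, adjusted p = 0.0179 by edgeR) and Acta1 (3.47, adjusted p = 0.0344 by edgeR). The number called was 0 without WT 4 and 1 without DKO 1 and DKO 3. Of 4 heart muscle genes, 2 were tested, and Myl7 (3.70, adjusted p = 0.0226 by edgeR) and Tnnt2 (2.38, adjusted p = 0.0134 by edgeR) were called. Nkx2-5 and Myh6 were too low to be tested. Nkx2-5 had 317 in DKO 1, 0 in the other DKO libraries and at most 4.37 in WT, and Myh6 had at most 3.44 in any library. On leaving out WT 1 or WT 4, 1 heart muscle gene was called. Of cartilage genes, Sox9 was called of 4 tested, and Col2a1 had 1014 in DKO 1 and at most 184 elsewhere (adjusted p = 0.0961 by edgeR). The cartilage call was lost on leaving out WT 1, WT 2, WT 4, DKO 1, DKO 3 or DKO 4. Of genes of neurons and neural crest, 1 was called higher of 4 tested, and this call was lost on leaving out DKO 4 or any 1 WT library. Sox10 had 365 in DKO 1 and at most 11.3 elsewhere. Of the epidermal genes, 0 of 4 could be tested, Krt14 having at most 57.5 and Krt15 at most 31.5, while the defining Krt5 and Trp63 were at 0 in each library. The summed counts of the lists ran, in WT and DKO, from 1485 to 2128 and from 2587 to 6374 for skeletal muscle, from 36.7 to 95.6 and from 251 to 912 for heart muscle, from 151 to 610 and from 545 to 2296 for cartilage. They ran from 236 to 314 and from 375 to 2825 for neurons and neural crest, and from 0 to 8.74 and from 0 to 79.9 for epidermis. The part of other tissues in the values of the 10 factors was not tested.

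Few genes of the erythroid, hepatoblast, endothelial and macrophage lists were called. Of 10 erythroid genes, 0 were called by edgeR, 2 were higher at an unadjusted p under 0.05, and 0 were called by DESeq2, with sums of 40485 to 83030 in WT and 31408 to 98767 in DKO, the most abundant being the globin genes Hba-a1 (log2 fold change 0.37, adjusted p = 0.694 by edgeR) and Hbb-bs (-0.32, adjusted p = 0.793 by edgeR), which have near-identical copies. The erythroid factors Klf1 and Gata1, added after their values were seen to check the labelled cell type, had 9622 to 17171 and 6649 to 10502 normalized counts over the 8 libraries. Hepatoblast transcripts were abundant, with 0 of 10 called by edgeR, 4 lower at an unadjusted p under 0.05, and 2 called lower by DESeq2, while edgeR called 4 lower without DKO 2. Their sums were 681735 to 925504 in WT and 477881, 771610, 196062 and 674913 in DKO, so that DKO 3 was lowest. Afp (log2 fold change -0.35, adjusted p = 0.472 by edgeR) and Trf (-0.83, adjusted p = 0.171 by edgeR) had the highest means. Of 9 endothelial genes, 1 was called, Pecam1, which fell by 1.14 on the log2 scale (adjusted p = 0.0126 by edgeR), with sums of 3440 to 4558 in WT and 2080 to 2887 in DKO. Of 8 macrophage genes, 1 was called, Adgre1, the antigen F4/80, which fell by 2.99 (adjusted p = 0.0383 by edgeR), with sums of 2404 to 3276 in WT and 661 to 1590 in DKO. The macrophage call was lost without any 1 WT library, without DKO 2 and with no low-count filter, and 2 were called lower without DKO 1. Their part in the result was not tested.

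**Figure D4:**
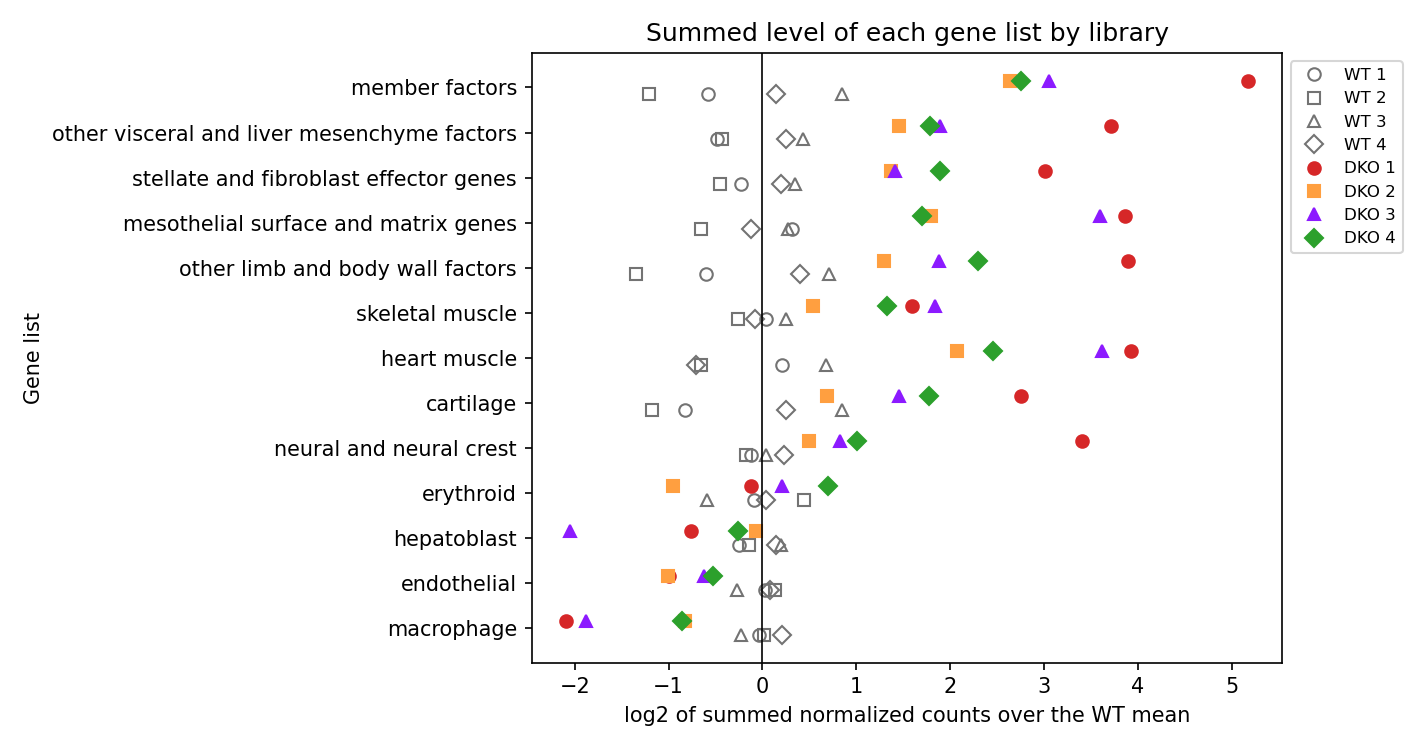
log2 of the summed normalized counts of each gene list in each library over the WT mean of that list (open grey symbols WT, filled symbols DKO). The factors and the mesenchymal, mesothelial, limb and body wall, muscle, cartilage and neural lists lie to the right of the WT mean in each DKO library. For cartilage, DKO 2 lies within the WT range. The erythroid list is mixed. The endothelial, macrophage and hepatoblast lists lie to the left in each DKO library, and the hepatoblast list is lowest in DKO 3.

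Over these lists without the 10 factors, 44 of 120 genes tested were called higher and 3 lower. Over all genes tested, 6.19% were called higher and 2.43% lower, so that the lists were near the overall share for lower calls. The number called higher was 28 without DKO 1 and DKO 3, 27 without WT 1 and 27 without WT 4. Without DKO 2, 6 were called lower, of which 4 were hepatoblast genes.

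The genes whose profile over the 8 libraries came nearest to each factor were found by the root mean square difference of centred log2 normalized counts over 14052 other protein-coding genes, as a description in which all points share the same libraries. Foxf1 was nearest to Nr2f2 (0.229), Plagl1 (0.256) and Olfml3 (0.295), for a median over genes of 1.74. Wt1 was nearest to Ptgis, the prostacyclin synthase (0.223), Col4a5 (0.336) and Hoxa5 (0.348), and Twist1 to Megf10 (0.339) and Igfbp5 (0.474). Prrx1 was nearest to Ybx2 (0.464), Oprl1 (0.504) and Creb5 (0.521), and Nr2f1 to Ddr2 (0.593), Col8a1 (0.620) and Tril (0.646). The other factors had looser neighbours, starting at 0.706 with Hmcn1 for Twist2, before Gm266 and Trpm5, at 0.740 with Ntf3 for Lhx2, before Sertad4 and Fam171b, at 0.791 with Nkain4 for Hand2, before Ano1 and Fam19a2, at 0.805 with Slitrk2 for Tcf21, before Tmem200a, and at 0.825 with Aqp5 for Tbx18, before Pou3f1 and Adora1. None of the 10 factors was among the 3 nearest genes of another. Between the factors, Wt1 and Foxf1 were the closest (0.797), followed by Twist1 and Nr2f1 (0.945) and by Tcf21 and Twist2 (0.996), and Hand2 and Tbx18 were the farthest apart (2.95). With a pseudocount of 1, WT libraries at or near 0 weigh heavily on these distances. Twist1 and Nr2f1 were each at 0 in WT 2, and Hand2 was at 0 in WT 3, the only WT library in which Tbx18 had counts. The distances are thus no measure of shared expression for factors near the floor in WT.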

How the data were processed

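RNAseq of sorted S0 cells from 4 WT and 4 DKO samples was analysed. The authors made libraries by template switching from low input, read them as 150-base pairs, and, per the labels, trimmed with fastp 0.21.0, mapped to mm10 with HISAT2 2.2.1 and, after removing alignments of low mapping quality, counted with StringTie 1.3.3b. The deposited values are whole-number counts per gene, not normalized and not pooled. prepDE, the script the study names, works back from coverage, so that a total need not equal the reads sequenced. Of 52636 gene identifiers, 52403 matched a GENCODE symbol on GRCm38, version numbers dropped.

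The tests ran in edgeR 4.0.16 (limma 3.58.1, R 4.3.3): filterByExpr, TMM scaling, robust quasi-likelihood test of DKO against WT with no covariate, and Benjamini-Hochberg adjustment over 17378 genes. A gene was called by the study's thresholds, with a log2 fold change beyond 1 in either direction and an adjusted p under 0.05. Single values were compared by an exact two-sided permutation test over 70 arrangements with a pseudocount of 1. Groups and replicate numbers come from the labels. The 10 factors and all lists were chosen with earlier results of these data known. The genes named are the 10 factors, up to 4 called genes of a list in each direction by p or else the 2 most abundant, genes overlapping a factor or divergent from it within 2 kb, the 3 genes of nearest profile, the targeted genes and the check of sex. Others named were chosen after their values were seen. Some genes that the rule takes are not reported here.

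The edgeR fit had been tested on simulated counts, and the other steps had not. Alternatives changed the tool (DESeq2 1.42.0), the scaling (upper quartile, or total counts alone), the filter (none, or a minimum of 10 counts in all libraries), the genes entered (protein-coding), the counts (divided by 2), the design (a replicate block), the threshold (no minimum fold), the pseudocount (0.5) or the summary (mean of log2 values), or left out each library. Leaving out DKO 1 and DKO 3 together was chosen with the data in view. Libraries of 1 genotype differed by far more than sampling noise (chi-square per gene of at least 18.3), so none was a second copy. At these totals a factor at 10 normalized counts rests on about as many counts, and counting error adds to the spread between samples.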

Additional observations from a re-analysis of the deposited data

Results flagged for a closer look

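Of 28 groups of 4 libraries examined for a value far from the others by Dixon's test, 8 held such a library. The chance rate of about 1 in 20 holds for normally distributed values. It is no yardstick here, since normalized counts were taken without a log. DKO 1 stood apart at 2488 normalized counts of Tcf21, 736 of Hand2, 1012 of Foxf1, 910 of Nr2f1 and 273 of Twist2. The same library stood apart in the sum over the 10 factors, at 7002, and in that over the 5 visceral and liver mesenchyme factors, at 5379. These 7 values are of 1 library and largely of the same genes, so they are not independent. WT 3 stood apart for Tbx18, at 12.2 normalized counts where the other WT libraries were at 0, so that any count there would have been flagged.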

How the results depend on the processing

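Each of the 10 factors had a log2 fold change above 0 in every alternative in which it was tested. Of 10 called higher, 2 remained testable and were called when every library had to reach 10 counts, and 3 were called with a replicate block. Leaving out 1 library at a time left 2 (without WT 1) to 9 (without WT 3), 4 without WT 2 and 3 without WT 4. DESeq2 called 8 of the 8 it gave an adjusted p (Tcf21 and Foxf1 had none), and 7 were called with no low-count filter. Over all genes, 1076 called higher became 1665 with DESeq2 and 563 with the replicate block. Upper-quartile scaling moved the median log2 fold change of all genes from 0.03 to 0.14. The difference of the summed level, 3.60, ran from 3.01 without DKO 1 to 3.94 without WT 3 and was 3.60 in the paired form, where 4 pairs cannot pass 0.05 (exact p = 0.125), and 2.89 without DKO 1 and DKO 3, where 0.0667 is the smallest exact p. Genes of the other lists called higher, 44, numbered 27 to 47 with 1 library left out and 28 without DKO 1 and DKO 3, and those called lower, 3, numbered 2 to 6, and 6 with DESeq2. Same-numbered libraries deviated together by correlations of -0.0893 to 0.0433 and 1 of 8 libraries correlated best with its own number, so that the samples share only a number. The causes of these changes were not tested, except that fewer genes or samples entered some fits.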
